A study of Arabidopsis thaliana with 54 samples.

Results

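RNA of cotyledons from untreated Arabidopsis thaliana seedlings was compared between a night harvest and the harvest of the following day. The comparison rests on 6 of the 54 arrays of the series, chosen by their labels as control, cotyledon and either 13.5 h or 25.5 h, with 3 arrays in each group. The series measured hypocotyls and cotyledons of Col-0 seedlings under control light, shade or ethylene at 1.5, 13.5 and 25.5 h on Affymetrix Arabidopsis Gene 1.1 ST arrays. All seedlings were 1 day old when the treatments began, grew at 21 degrees C in short days of 9 h light and 15 h dark, and were kept in closed glass desiccators. Control light had a photosynthetically active radiation of 140 and a blue component of 29 (in µmol per square metre per second). Its ratio of red to far-red light was 2.1. Ethylene was given at 1 µl per litre in that same light. Shade came from a green filter that lowered the radiation to 40, the blue light to 3 and the ratio to 0.45. The tissue called cotyledon included the shoot apical meristem, and roots were discarded. Each replicate was RNA pooled from 2 technical replicates of 25 seedlings, and the replicates came from 3 independent experiments.

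The labels place the 13.5 h harvest in the dark period, when dissection took place under a green safelight of about 5 µmol per square metre and second. The hour of lights-on is not stated, and the 25.5 h harvest is taken here as the following light period. The night and day harvests lie 12 h apart, so time of day, light and 12 h of further development cannot be told apart. Another control group was harvested at 1.5 h, which is 24 h before the day harvest and so at the same clock time. Its levels are given beside those of the compared groups and entered no test against them.

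Plant cells anticipate dawn and dusk through a circadian clock, a network of genes that repress one another in a daily sequence and set the timing of many others. Light acts on the same genes through phytochromes, cryptochromes and the transcription factors they control. By day, leaf chloroplasts fix carbon and store part of it as starch, and by night the starch is degraded to maltose and glucose, which feed export, respiration and growth. In young seedlings the cotyledons also turn from storage organs into photosynthetic leaves.

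Levels below are log2 RMA values, in which a difference of 1 is a 2-fold change, and differences are night minus day, so that a positive value is a higher level at night. Errors of levels are SD over 3 arrays, errors of differences are standard errors of the limma fit, and a gene was called at an adjusted p below 0.05. The 6 arrays had medians of 4.33 to 4.43 over all features. Over the 17504 features with a gene the correlation was 0.987 to 0.99 between arrays of one group. It was 0.952 to 0.958 between night and day arrays, and no array was identical to another. The number of arrays limits the precision, and the p-values measure the spread between these samples. Stomatal lineage and root markers separated the organs as labelled, and photosystem markers did so only within each harvest. Leaf and apex and vascular markers did not fully separate them. The mean level of 9 photosystem genes was 9.40 to 9.48 in the night arrays and 9.90 to 10 in the day arrays of cotyledon, against 9.01 to 9.22 and 9.56 to 9.63 in control hypocotyl. The 4 stomatal lineage genes averaged 6.87 to 7.34 over the cotyledon arrays and 4.14 to 5.11 in hypocotyl, while the 5 root genes averaged 4.61 to 5.04 and 5.35 to 6.08. Between night and day in cotyledon, the mean of 12 leaf and apex genes moved from 4.92 to 4.95 up to 5.12 to 5.18, that of 3 vascular genes from 7.58 to 7.81 up to 7.88 to 7.94, and that of 6 seed reserve genes from 5.09 to 5.41 down to 4.67 to 4.89. In control hypocotyl the leaf and apex genes averaged 4.34, 4 and 5.16 at night, so replicate 3 lay above the cotyledon night arrays. By day they averaged 3.88 to 4.52 there. Hypocotyl replicate 3 was also the highest for the stomatal genes, at 5.11 at night and 4.82 by day. The vascular genes overlapped between organs, at 7.63 to 8.2 at night and 7.67 to 8.12 by day in hypocotyl. The part of tissue composition in the results below was not tested. These are bulk samples, in which fewer cells of a type and less RNA per cell cannot be told apart.

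The level of 4560 features differed between night and day. Of 16746 features with 1 gene, 2649 were higher at night, which is 15.8%, and 1911 were higher by day, which is 11.4%. Both shares are the background for the list counts below. At least a 2-fold difference was seen in 825 features higher at night and 774 higher by day, and at least an 8-fold difference in 34 and 59. The median difference over all features was -0.0047. The split between directions depended on the scaling: with each array centred on 14 reference genes, the median over all features became -0.14 and gave 1883 features higher at night and 2685 higher by day. Changes are therefore relative to the bulk of the measured genes.

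At night the gene with the largest difference was AT3G62550. It read 8.83, 8.34 and 8.20 in the night arrays and 2.49, 2.41 and 2.04 by day, a difference of 6.15 ± 0.28 (adjusted p = 3.68e-21). COR27, a cold-induced regulator of the clock, read 7.96, 7.87 and 7.68 at night and 2.70, 2.38 and 2.22 by day, a difference of 5.4 ± 0.21 (adjusted p = 1.53e-23). In both genes the night arrays stood far above the day arrays, and at 1.5 h the means were 2.41 ± 0.20 and 2.04 ± 0.12, close to those of the later day harvest. AT3G15630 averaged 9.12 ± 0.16 at night and 4.02 ± 0.98 by day, a difference of 5.10 ± 0.32, with the day arrays more scattered than the night ones. The other 9 of the 12 largest night differences ran from 3.60 to 4.71. They were AT4G16146, AT4G01130, AT1G27020, AT1G17665, AT4G34950, AT1G56220, CCL, AT2G15880 and scpl35, the last a gene for a serine carboxypeptidase-like protein. CCL was the gene CCR-like, and read 11.64, 11.60 and 11.85 at night against 7.79, 8.0 and 8.30 by day. For scpl35 and AT4G01130 the 1.5 h means of 7.65 and 6.31 lay between the night means of 9.82 and 9.33 and the day means of 6.22 and 4.77.

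By day the largest difference was that of AT3G09450, which read 2.91, 3.26 and 2.38 at night and 8.97, 8.99 and 9.21 by day, a difference of -6.2 ± 0.29 (adjusted p = 8.96e-21). AT1G26790 followed at -5.96 ± 0.36. AT5G48570, which encodes the FK506-binding protein FKBP65, a heat-inducible peptidyl-prolyl isomerase also called ROF2, read 4.00, 4.17 and 5.13 at night and 10.04, 9.74 and 9.90 by day. Its difference was -5.46 ± 0.28 (adjusted p = 1.98e-19), and its mean at 1.5 h was 7.31 ± 0.11, between night and day. GI, or GIGANTEA, a clock protein that peaks late in the day and links the clock to flowering, read 3.27, 3.08 and 3.29 at night and 8.11, 8.06 and 8.27 by day, a difference of -4.93 ± 0.15 (adjusted p = 1.64e-26). At 1.5 h GI averaged 8.14 ± 0.10, a level within the range of the later day arrays. The remaining genes among the 12 were AT2G27420, AT2G15020, AT1G62510, AT1G55960, AT1G65490, AT4G34550, AT3G53830 and AT5G15950, with differences from -5.46 to -4.56. Several had not reached the day level at 1.5 h. AT1G65490 averaged 1.97 at night, 3.56 at 1.5 h and 6.82 by day, and AT4G34550 averaged 2.72, 5.34 and 7.53. AT1G55960, in contrast, averaged 7.37 at night, 11.85 at 1.5 h and 12.27 by day.

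**Figure D1:**
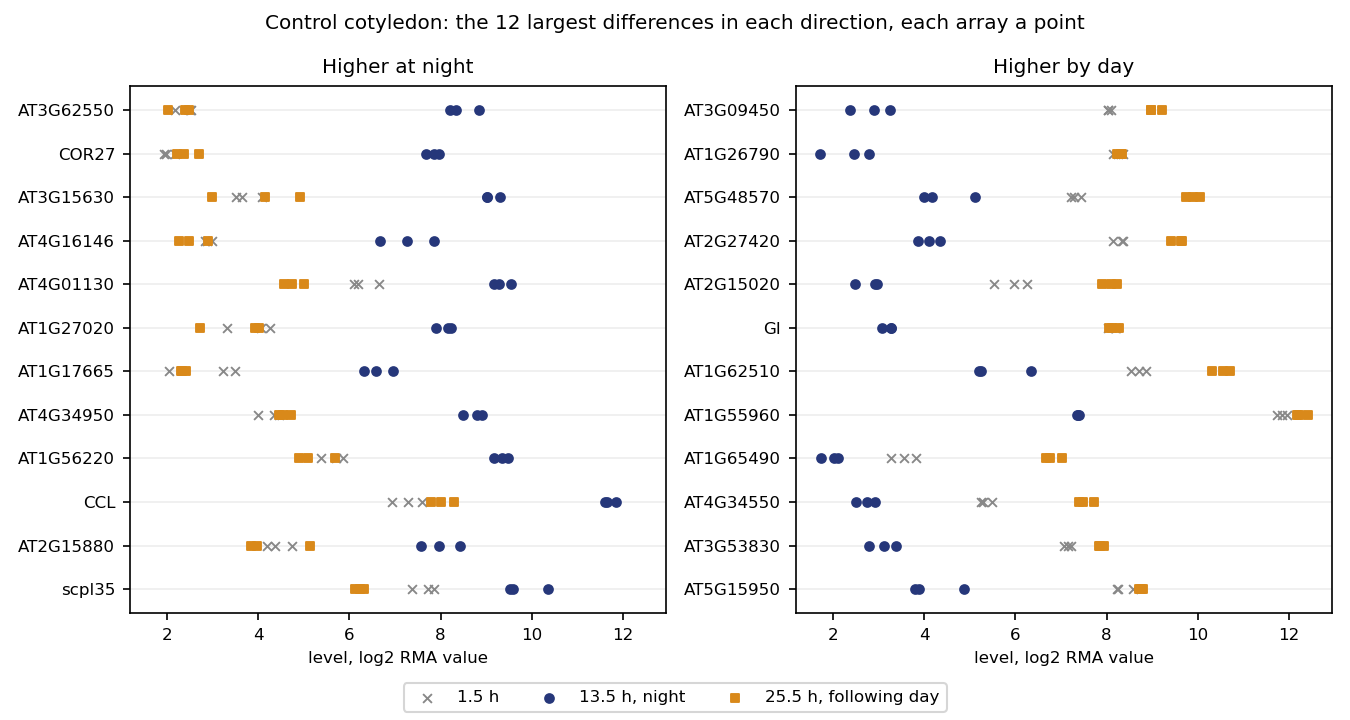
Level on the log2 RMA scale (horizontal axis) of the 12 genes with the largest night minus day difference in each direction in control cotyledon, each array as a point, with blue circles for 13.5 h (night), orange squares for 25.5 h (following day) and grey crosses for 1.5 h. Night and day arrays do not overlap for any of these genes, which the choice of genes required, and the crosses lie near the orange squares for COR27 and GI but between the groups for scpl35 and AT4G34550.

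The clock list held 6 measured genes, of which 3 were higher at night and 1 by day, beside 15.8% and 11.4% of all features. Its median difference was 0.36. Beside COR27 and GI, TIC (TIME FOR COFFEE), a nuclear clock regulator, read 10.25, 10.21 and 10 at night and 9.58, 9.68 and 9.61 by day, a difference of 0.53 ± 0.11 (adjusted p = 0.000252). FIO1 (FIONA1), which affects the period of the clock, averaged 6.08 ± 0.24 at night and 5.37 ± 0.20 by day, a difference of 0.71 ± 0.22 (adjusted p = 0.0121). The FIO1 call was lost without night replicate 1 (adjusted p = 0.068), without day replicate 2 (0.0774) and under centring on the reference genes (0.0522). AT1G72390, annotated as PHYTOCHROME-DEPENDENT LATE-FLOWERING, differed by 0.19 ± 0.16 and XCT (XAP5 CIRCADIAN TIMEKEEPER) by -0.01 ± 0.18. For both, night and day arrays overlapped.

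Of 3 light signalling genes, 2 were higher by day, beside 11.4% of all features. PIF7, a phytochrome-interacting transcription factor known for its part in shade avoidance, read 5.84, 5.61 and 5.44 at night and 9.55, 9.53 and 9.60 by day, a difference of -3.93 ± 0.25 (adjusted p = 2.11e-16). HYH, the homologue of the photomorphogenesis factor HY5, averaged 5.08 ± 0.33 at night and 7.31 ± 0.07 by day, a difference of -2.24 ± 0.15 (adjusted p = 2.84e-15). The day arrays of PIF7 lay close together and well above the night arrays, while its 1.5 h mean of 7.97 was intermediate. HYH at 1.5 h averaged 7.66. FHL, which helps phytochrome A enter the nucleus, differed by -0.57 and missed the threshold (adjusted p = 0.0761). AFR, an F-box protein of phytochrome A signalling, was singled out after its values were seen. It read 4.44, 4.32 and 5.16 at night and 7.82, 7.81 and 8.10 by day, a difference of -3.27 ± 0.19 (adjusted p = 7.43e-18), and its 1.5 h mean of 8.02 was at the day level.

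Photosystem and light-harvesting genes were lower at night. Of 9 measured, 6 were higher by day and 0 at night, against 11.4% and 15.8% of all features, and their median difference was -0.56. LHCB4.2, a minor antenna protein of photosystem II, stood out with 8.0, 8.09 and 8.37 at night and 10.28, 10.29 and 10.22 by day, a difference of -2.11 ± 0.15 (adjusted p = 1.14e-14). Its paralogue LHCB4.1 moved less, from 10.5 ± 0.05 by day to 10 ± 0.04 at night, a difference of -0.53, and LHCB4.3 did not pass the test (0.50, adjusted p = 0.0667). The photosystem subunits PSBY, PSAE-1, PSBW and PSAN differed by -0.98, -0.79, -0.57 and -0.56. For PSBW, a small subunit of photosystem II, night arrays lay at 11.91, 11.92 and 11.85 and day arrays at 12.54, 12.44 and 12.39, so the groups did not overlap although the difference was under 2-fold. Among 4 genes of carbon fixation and photorespiration, HPR, the peroxisomal hydroxypyruvate reductase, was higher by day (-0.59 ± 0.13, adjusted p = 0.000422). RCA, Rubisco activase, differed by -0.23 ± 0.09 (adjusted p = 0.0417), a call lost when any of 5 of the 6 arrays was left out (adjusted p up to 0.15).

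Genes of chlorophyll synthesis moved in the opposite direction. Of 8 measured genes of the tetrapyrrole pathway, 4 were higher at night and 0 by day, beside 15.8% and 11.4% of all features, with a median of 0.47. PORB, a light-dependent protochlorophyllide oxidoreductase that makes chlorophyllide when light returns, read 9.76, 9.59 and 10.11 at night and 7.40, 7.19 and 7.0 by day, a difference of 2.63 ± 0.28 (adjusted p = 7.23e-10). Its mean at 1.5 h was 9.70 ± 0.18, at the night level rather than that of the day 24 h later. HEMA2, a glutamyl-tRNA reductase at the entry of the pathway, averaged 5.82 ± 0.17 at night and 4.64 ± 0.33 by day (1.18 ± 0.25, adjusted p = 0.00027). GSA1, the aminotransferase that makes aminolevulinate, averaged 9.48 ± 0.05 and 8.47 ± 0.08 (1.01 ± 0.13). hemf2, named for coproporphyrinogen oxidase, differed by 0.82 ± 0.24. At 1.5 h GSA1 and hemf2 averaged 9.67 and 6.16, above their night means of 9.48 and 5.79. HEMA2 averaged 5.09 at 1.5 h, between night and day. The remaining 4, NOL, HEME1, HEME2 and CHLM, had differences of -0.10 to 0.12 and did not pass the test.

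Starch enzymes moved in both directions, with 2 of 8 measured genes higher at night and 3 by day and a median of 0.18. Over all features the shares were 15.8% and 11.4%. DPE1, the plastid disproportionating enzyme that rebuilds short glucans during starch breakdown, read 8.96, 9.01 and 9.15 at night and 6.02, 5.83 and 6.17 by day, a difference of 3.04 ± 0.17 (adjusted p = 2.09e-18). AT5G26570, annotated as phosphoglucan water dikinase, which phosphorylates the starch granule and opens it to degradation, read 9.23, 9.15 and 9.12 at night and 6.06, 6.37 and 6.35 by day, a difference of 2.91 ± 0.14 (adjusted p = 1.04e-20). Both genes of breakdown were therefore several times higher at night, and their 1.5 h means of 7.66 and 7.29 lay between the groups. Higher by day were SBE2.2, a starch branching enzyme of synthesis (-0.56 ± 0.10), AT4G24450, a further glucan water dikinase gene (-0.89 ± 0.25), and APL3, a large subunit of ADP-glucose pyrophosphorylase, the committed step of synthesis. APL3 averaged 5.01 ± 0.75 at night and 5.90 ± 0.45 by day (-0.89 ± 0.26, adjusted p = 0.00625). Its arrays overlapped, and the call was lost without night replicate 1 (0.0691), night replicate 2 (0.0786) or day replicate 1 (0.0539).

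Sugar transporters were mostly higher by day, in 8 of 14 genes, while 1 was higher at night, beside 11.4% and 15.8% of all features. The median was -0.54. The exception was TMT1, which loads sugars into the vacuole, at 9.72, 9.69 and 9.29 at night and 7.21, 6.80 and 7.10 by day (2.53 ± 0.16, adjusted p = 2.59e-16). Its relative TMT2 was among the genes higher by day, at -0.65. SFP2, of the sugar porter family, averaged 5.82 ± 0.19 at night and 8.22 ± 0.23 by day (-2.4 ± 0.22, adjusted p = 1.4e-11). SWEET16 and SWEET17, which let sugars cross the vacuolar membrane in both directions, differed by -1.93 ± 0.29 and -1.39 ± 0.33. SAG29, the gene also known as SWEET15, averaged 2.96 ± 0.13 at night and 4.83 ± 0.71 by day (-1.87 ± 0.38, adjusted p = 0.000135). SWEET2, SWEET1 and SWEET4 were higher by day with differences of -0.89, -0.76 and -0.44. SWEET11, a sucrose exporter of the phloem, differed by -0.21 ± 0.20 and did not pass the test.

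Genes known to rise when carbon is short were higher at night in 5 of 8 cases and by day in 1, with a median of 0.63. Over all features the shares were 15.8% and 11.4%. AKINBETA1, a regulatory subunit of the energy-sensing kinase SnRK1, read 9.26, 9.01 and 8.77 at night and 6.92, 6.68 and 7.13 by day, a difference of 2.10 ± 0.20 (adjusted p = 3.11e-11). Its 1.5 h mean was 7.14 ± 0.10. Enzymes that burn amino acids moved with it. MCCB, a subunit of methylcrotonyl-CoA carboxylase in leucine breakdown, differed by 1.25 ± 0.16. AT4G33150, the bifunctional enzyme of lysine breakdown, differed by 1.07 ± 0.24. ETFQO and D2HGDH, which pass electrons from such substrates to the mitochondrial chain, differed by 0.72 ± 0.14 and 0.37. EXO (EXORDIUM), a brassinosteroid-responsive promoter of leaf expansion in this list, went the other way at 5.98, 5.45 and 6.10 at night and 7.64, 7.69 and 8.31 by day, a difference of -2.04 ± 0.38 (adjusted p = 4.43e-05).

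Autophagy genes, whose products enclose cell contents for recycling in the vacuole, were higher at night in 7 of 10 cases and by day in 0. Their median was 0.57, and the shares over all features were 15.8% and 11.4%. Those with the largest differences encode ATG8, the ubiquitin-like protein that coats the autophagosome. ATG8E read 7.74, 7.28 and 7.35 at night and 5.73, 5.98 and 5.97 by day (1.56 ± 0.17, adjusted p = 4.58e-10). ATG8D averaged 5.71 ± 0.12 and 4.07 ± 0.33 (1.64 ± 0.20), ATG8F 9.72 ± 0.10 and 8.36 ± 0.08 (1.36 ± 0.13), and ATG8G 5.00 ± 0.17 and 3.93 ± 0.36 (1.08 ± 0.24). In each of these the night arrays lay above all day arrays. ATG8B differed by 0.01 and did not pass the test. Under centring on the reference genes 5 of the 10 were called, again all higher at night. Among 10 vacuolar protein sorting genes, a list added after values were seen, 5 were higher at night, beside 15.8% of all features. They were led by VPS20.1 (0.98 ± 0.23) and VPS60.2 (0.89 ± 0.21) of the ESCRT-III machinery, and the list had a median of 0.19. Without night replicate 1 that count was 3.

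**Figure D2:**
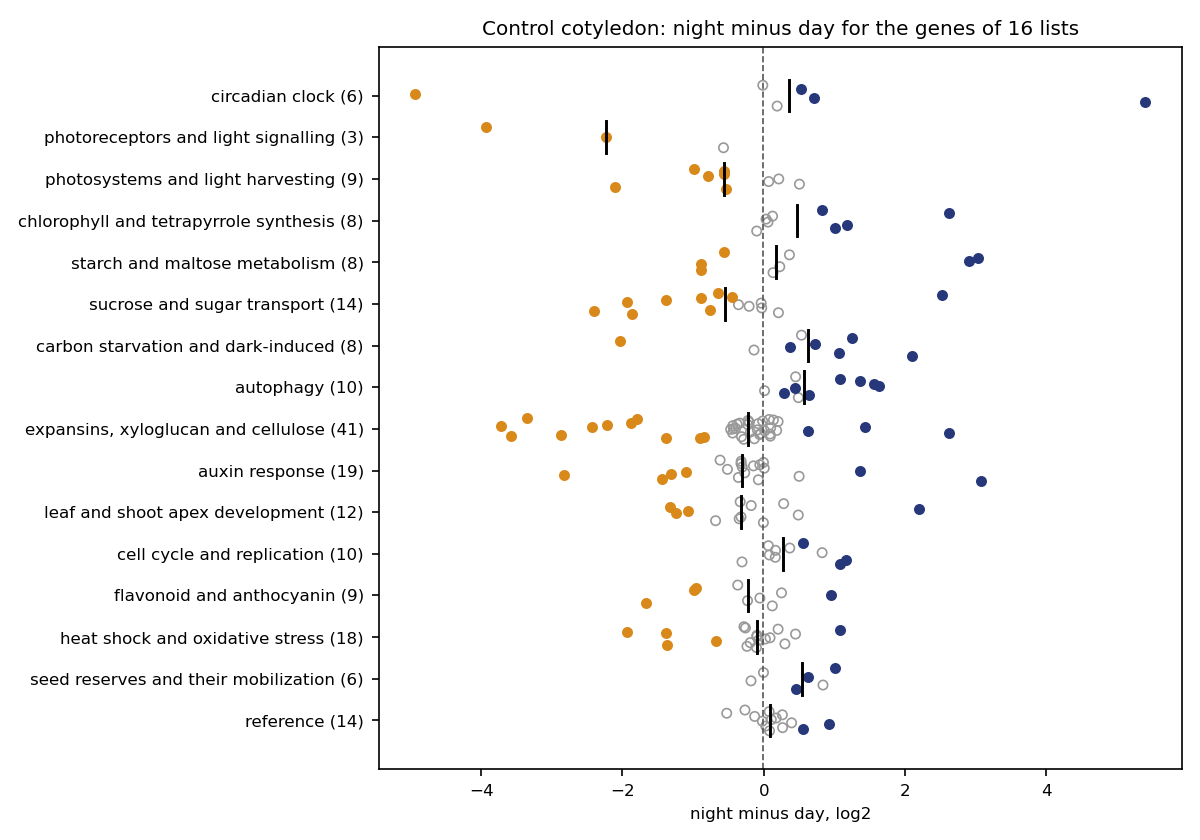
Night minus day difference on the log2 scale (horizontal axis) for each measured gene of 16 lists (vertical axis, number of genes in brackets) in control cotyledon; filled blue points were called higher at night, filled orange points higher by day, open points were not called, black bars are list medians and the dashed line is the median of all features. The called autophagy and chlorophyll synthesis genes all lie to the right and the called photosystem genes all to the left, while expansins and starch enzymes spread to both sides.

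The cell wall list had 41 measured members, of which 11 were higher by day and 3 at night, and the median was -0.23. Over all features the shares were 11.4% by day and 15.8% at night. Expansins loosen the wall so that cells can enlarge, and XTH enzymes cut and rejoin its xyloglucan. EXPB1, a beta-expansin, read 4.00, 4.66 and 4.96 at night and 8.38, 8.30 and 8.10 by day, a difference of -3.72 ± 0.30 (adjusted p = 3.5e-13). EXLA1, an expansin-like gene, read 4.17, 3.54 and 3.70 at night and 7.0, 7.14 and 8.0 by day (-3.58 ± 0.33, adjusted p = 1.03e-11), and its relative EXLA2 averaged 4.15 ± 0.31 and 7.02 ± 0.06 (-2.87 ± 0.35). XTH33 read 3.55, 3.91 and 3.96 at night and 7.18, 6.95 and 7.37 by day (-3.36 ± 0.21, adjusted p = 6.87e-17). In all 4 the groups were far apart, but the 1.5 h means differed in kind. EXPB1 averaged 9.10 ± 0.27 at 1.5 h, above its day level of 8.26, whereas EXLA1 averaged 4.64 ± 0.52, nearer its night level of 3.80 than its day level of 7.38. The other 7 genes higher by day, among them EXPA8 and XTH32, ran from -2.43 to -0.84. Higher at night were EXPA16 at 7.77, 7.72 and 7.16 against 5.15, 4.58 and 5.06 by day (2.62 ± 0.25, adjusted p = 2.74e-11), EXPA9 (1.43 ± 0.27) and EXPA20 (0.63 ± 0.16). Alpha-expansins thus occurred on both sides.

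**Figure D3:**
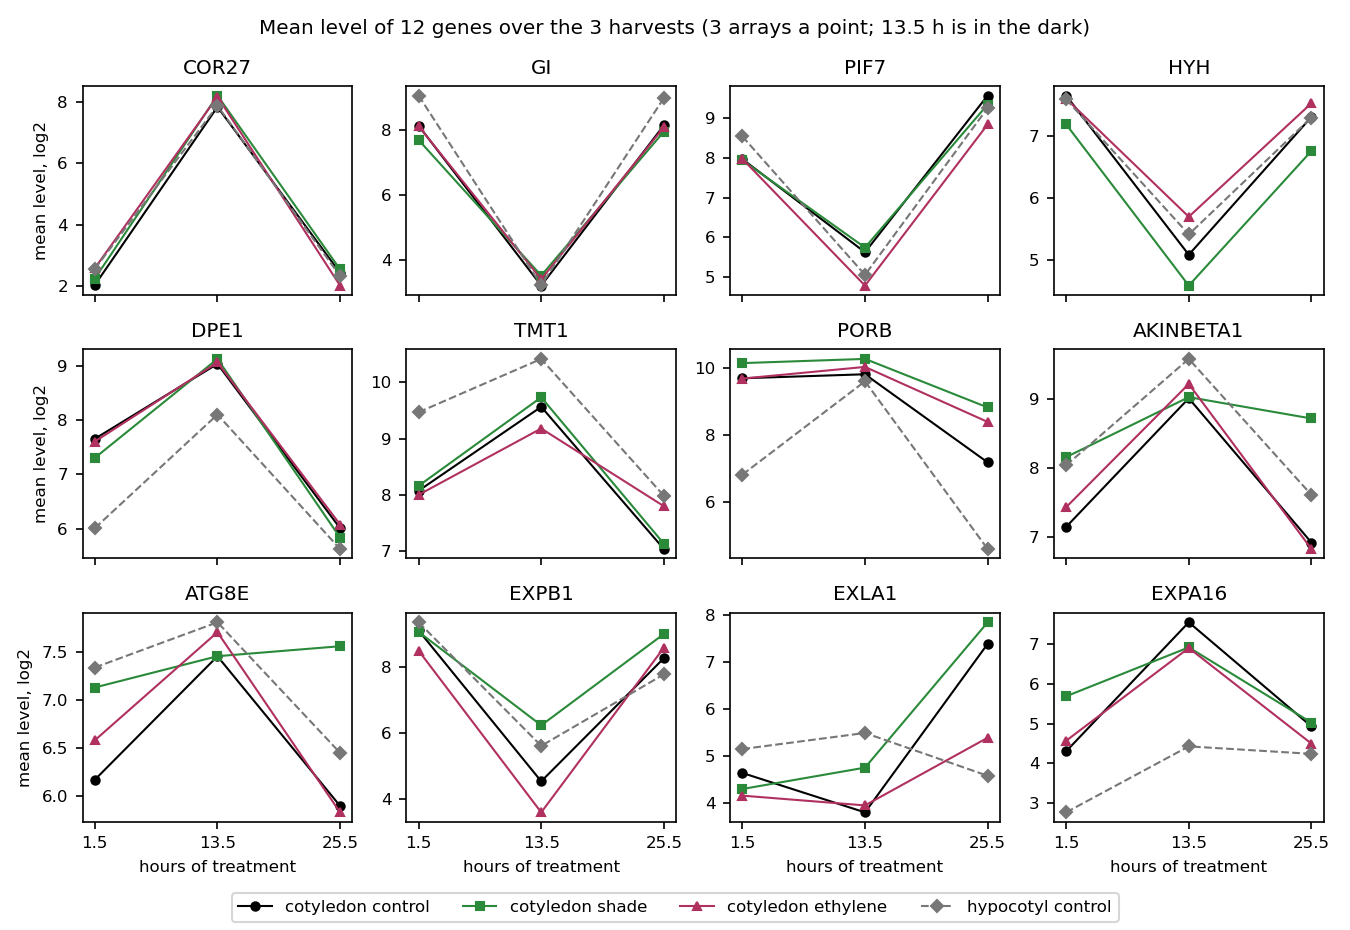
Mean level on the log2 scale (vertical axes, one scale a gene) of 12 genes at 1.5, 13.5 and 25.5 h (horizontal axis), 3 arrays a point, in control cotyledon (black circles), shade cotyledon (green squares), ethylene cotyledon (red triangles) and control hypocotyl (grey diamonds, dashed). COR27 peaks and GI dips at 13.5 h in all 4 series, whereas in control cotyledon PORB averages 9.70, 9.82 and 7.19 and EXLA1 4.64, 3.80 and 7.38 at the successive harvests.

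Of 19 auxin genes, 2 were higher at night and 4 by day, with a median of -0.30. Beside 15.8% and 11.4% of all features, the total was near the background. ARL (ARGOS-LIKE), which promotes organ growth, read 8.0, 7.17 and 9.61 at night and 5.23, 4.60 and 5.75 by day, a difference of 3.07 ± 0.50 (adjusted p = 4.87e-06). The night arrays were scattered but all above the day arrays, and the 1.5 h mean of 8.22 was at the night level. IAA20, an Aux/IAA repressor, read 2.15, 2.26 and 4.97 at night and 1.83, 1.76 and 1.72 by day, so its difference of 1.35 ± 0.50 (adjusted p = 0.0393) rested on night replicate 3. Without that array the difference was 0.43 (adjusted p = 0.604), and without any one of the day arrays the adjusted p was 0.073 to 0.0854. By day the level was higher for GH3.9 and GH3.17, members of the family that conjugates auxin and other acids to amino acids, at -2.83 ± 0.23 and -1.44 ± 0.19. HAT2, an auxin-induced homeodomain gene, averaged 7.72 ± 0.32 at night and 9.02 ± 0.12 by day (-1.31 ± 0.17), and IAA18 averaged 6.36 ± 0.05 and 7.46 ± 0.09 (-1.09 ± 0.16). In the gibberellin and brassinosteroid list 1 of 5 genes was called, beside 15.8% higher at night and 11.4% higher by day over all features. That count was near the background. The called gene was GID1A, a gibberellin receptor, at 7.46, 7.38 and 7.48 at night and 6.0, 5.6 and 6.08 by day (1.55 ± 0.17, adjusted p = 8.57e-10). BRL1 and GID1C had differences of 0.72 and 0.51 that did not pass the test, although each passed when 1 array was left out (adjusted p = 0.0186 without night replicate 2 and 0.0303 without day replicate 1).

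Among 8 jasmonate, salicylate and ethylene genes, 1 was higher at night and 2 by day, beside 15.8% and 11.4% of all features. RTE1, which promotes ethylene receptor function, was higher at night (1.09 ± 0.18, adjusted p = 3.9e-06). The jasmonate transcription factors MYC4 and MYC3 were higher by day. MYC4 read 4.17, 3.94 and 4.18 at night and 6.14, 5.64 and 5.54 by day (-1.68 ± 0.21), and MYC3 differed by -0.50 ± 0.15, a call lost without night replicate 3 (adjusted p = 0.0649). RR16, a type-A response regulator that dampens cytokinin signalling, was higher at night. It was the only 1 of 8 response regulators called, beside 15.8% and 11.4% of all features. That list was added after values were seen, and its count did not exceed the background. RR16 read 6.87, 6.81 and 7.81 at night and 4.54, 4.51 and 4.90 by day (2.52 ± 0.37, adjusted p = 5.74e-07), and its 1.5 h mean was 7.13 ± 0.21. The related ARR15 differed by -0.30 ± 0.41.

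In the leaf and shoot apex list 1 of 12 genes was higher at night and 3 by day, beside 15.8% and 11.4% of all features, with a median of -0.33. SPT (SPATULA), a bHLH factor that restrains leaf and cotyledon growth, read 7.03, 6.96 and 7.69 at night and 4.85, 5.04 and 5.23 by day, a difference of 2.19 ± 0.27 (adjusted p = 1.64e-08), and averaged 7.67 at 1.5 h. TCP15, a growth-regulating TCP factor, averaged 4.24 ± 0.25 at night and 5.57 ± 0.05 by day (-1.33 ± 0.18). PHV (PHAVOLUTA), which specifies the upper side of leaves, averaged 7.15 ± 0.23 and 8.39 ± 0.23 (-1.24 ± 0.19). ROT4, which encodes a small peptide that limits cell proliferation, differed by -1.07 ± 0.26. It averaged 2.00 at night and 3.07 by day, below the array medians of 4.33 to 4.43. CLV3, the stem cell peptide of the meristem, differed by -0.01. Of 4 stomatal lineage genes 0 were called by limma, beside 15.8% and 11.4% of all features, and 0 had an unadjusted p under 0.05. SPCH (SPEECHLESS), which starts the lineage, averaged 8.97 ± 0.03 and 9.06 ± 0.13. Of 10 cell cycle genes 3 were higher at night and 0 by day, beside 15.8% and 11.4% of all features, with a median of 0.27. The mitotic kinases AUR3 and AUR1 differed by 1.17 ± 0.26 and 1.08 ± 0.24, and both had 1.5 h means (6.78 and 9.18) at or above their night means of 6.77 and 8.78. SIM (SIAMESE), an inhibitor of cyclin-dependent kinases, differed by 0.56 ± 0.20 with overlapping arrays, and its call was lost without night replicate 3 (0.33, adjusted p = 0.291), without day replicate 1 (0.152) or day replicate 2 (0.105), and when the arrays were centred on the reference genes (0.128).

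Of 9 flavonoid genes, 3 were higher by day and 1 at night, beside 11.4% and 15.8% of all features. CHIL, a chalcone isomerase-like protein that assists the first steps of the pathway, averaged 5.99 ± 0.29 at night and 7.65 ± 0.15 by day (-1.66 ± 0.23, adjusted p = 2.4e-07), and the flavonol glycosyltransferases UGT78D1 and UGT78D2 differed by -0.99 ± 0.19 and -0.96 ± 0.22. UGT73B2 was higher at night (0.96 ± 0.26). Over all 51 measured UDP-glycosyltransferases, a list added after values were seen, 5 were higher at night and 10 by day, beside 15.8% and 11.4% of all features, so the total was near the background. UGT72E1, which glucosylates lignin precursors, differed by 2.4 ± 0.33, UGT85A4 by 2.05 ± 0.21, and UGT76C2, which inactivates cytokinins, by 1.96 ± 0.24. Higher by day were UGT84A3 (-1.86 ± 0.22), UGT74D1, which glucosylates auxins (-1.69 ± 0.14), UGT73C1 (-1.41 ± 0.24) and UGT87A2 (-1.18 ± 0.27).

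Beta-glucosidases, which release sugars from stored glucosides, were a further list added after values were seen, with 6 of 22 higher at night and 5 by day. Over all features the shares were 15.8% and 11.4%. BGLU33 read 4.05, 4.41 and 3.70 at night and 8.12, 8.10 and 6.73 by day (-3.59 ± 0.34, adjusted p = 1.84e-11), while its 1.5 h mean was 3.00 ± 0.31. BGLU40 read 6.22, 6.55 and 6.40 at night and 9.81, 9.79 and 9.91 by day (-3.44 ± 0.17, adjusted p = 1.72e-19), with 9.40 at 1.5 h. BGLU28, a glucosidase linked to sulfur limitation, averaged 3.36 ± 0.34 and 6.28 ± 0.57 (-2.92 ± 0.41). These 3 were higher in all day arrays than in any night array, but at 1.5 h the means of BGLU33 and BGLU28 were 3.00 and 3.65, below the day level. At night BGLU44, BGLU15, BGLU25 and BGLU16 were higher by 1.79, 1.55, 1.54 and 1.37. At 1.5 h BGLU44, BGLU15 and BGLU25 averaged 9.33, 6.51 and 6.84, near or above their night means of 9.65, 5.61 and 6.56. BGLU16 averaged 6.19 at 1.5 h, near its day mean of 6.27.

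Of 18 heat shock and oxidative stress genes, 4 were higher by day and 1 at night, beside 11.4% and 15.8% of all features, and the median was -0.10. The 4 were glutathione transferases, which conjugate glutathione to reactive compounds: GSTU28 (-1.94 ± 0.30), GSTU27 (-1.38 ± 0.17), GSTF4 (-1.37 ± 0.26) and GSTU18 (-0.67 ± 0.18). HSP93-III, the chloroplast chaperone also called ClpC2, was higher at night at 10.02, 10.10 and 10.18 against 8.97, 8.92 and 9.18 by day (1.07 ± 0.13). Its 1.5 h mean of 10.42 lay above the night arrays. Hop3, a co-chaperone that joins HSP70 to HSP90 and was singled out after its values were seen, read 3.28, 3.39 and 3.78 at night and 6.61, 6.05 and 6.54 by day (-2.92 ± 0.29, adjusted p = 5.27e-11). It moved the same way as the heat-inducible AT5G48570, itself named above for its large difference, and the opposite way to HSP93-III. In the cold and abscisic acid list COR15A was called at -0.73 ± 0.25, with overlapping arrays, and lost its call without any of night replicates 2 and 3 and day replicates 1 and 2 (adjusted p up to 0.371). KIN2 and COR47 differed by -0.23 and -0.46 and did not pass the test.

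Of 6 genes of seed reserves and their mobilization, 3 were higher at night and 0 by day, beside 15.8% and 11.4% of all features. SDP1, the lipase that starts oil mobilization in seedlings, read 7.02, 6.89 and 7.30 at night and 5.97, 6.04 and 6.16 by day (1.01 ± 0.13, adjusted p = 2.45e-08), and AIM1, an enzyme of peroxisomal beta-oxidation, differed by 0.46 ± 0.10. The other called gene, M17, a late embryogenesis protein, averaged 2.92 at night and 2.30 by day, below the array medians of 4.33 to 4.43. Its difference was 0.62 ± 0.20, and the call was lost under centring on the reference genes (adjusted p = 0.076). The acyl carrier protein thioesterases FaTA and FATB, which release new fatty acids from the plastid, were higher by day at -1.07 ± 0.25 and -0.73 ± 0.11. VTC4, a phosphatase of ascorbate synthesis, averaged 6.39 ± 0.25 at night and 7.91 ± 0.27 by day (-1.52 ± 0.17, adjusted p = 7.29e-10). In the sulfur and nitrogen list APS3, an ATP sulfurylase, differed by -0.49 ± 0.17, a call lost without night replicate 1 (0.134), night replicate 2 (0.121) or day replicate 2 (0.113), while APS4 and SIR had differences of -0.53 and -0.06 that did not pass the test.

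bZIP transcription factors, a list added after values were seen, were higher by day in 7 of 17 cases and at night in 0, with a median of -0.27. Over all features the shares were 11.4% and 15.8%. bZIP58 averaged 3.35 ± 0.44 at night and 5.77 ± 0.65 by day (-2.42 ± 0.37), and BZIP34 6.82 ± 0.13 and 9.05 ± 0.07 (-2.23 ± 0.25, adjusted p = 1.25e-09). BZIP60, which responds to unfolded proteins in the endoplasmic reticulum, read 5.65, 4.73 and 5.38 at night and 6.2, 6.72 and 6.63 by day (-1.26 ± 0.23). BZIP61 differed by -0.75 ± 0.21, a call lost without night replicate 3 (adjusted p = 0.0514). Subunits of RNA polymerase II and of Mediator, the complex that links it to transcription factors, were also listed after values were seen. Of 17 genes 5 were higher at night and 0 by day, beside 15.8% and 11.4% of all features, with a median of 0.40. NRPB10 read 7.84, 7.62 and 7.31 at night and 6.24, 6.28 and 6.43 by day (1.27 ± 0.20), MED21 differed by 0.76 ± 0.21, MED6 by 0.53 ± 0.18 and MED19A by 0.50 ± 0.12. The count was 3 without night replicate 1, without night replicate 3, without day replicate 2, or under centring on the reference genes.

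Among the tissue lists, the vascular peptide gene CLE41 was higher by day (-0.57 ± 0.15) and CLE44 differed by 0.22 ± 0.21. PYK10, a beta-glucosidase of endoplasmic reticulum bodies, was higher at night by 0.31 ± 0.07, a call lost under centring on the reference genes (0.17, adjusted p = 0.173), and the jacalin lectin JAL34 was higher by 0.58 ± 0.12. LBD29, EXPA18, STOMAGEN, JAL31 and JAL33 had differences of 0.11, -0.19, -0.37, 0.38 and 0.49 and did not pass the test, although JAL31 passed it without night replicate 2 (0.0167). Neither did the exosome subunits RRP41 and RRP41L (-0.29 and 0.44) or the glucosinolate genes AOP3 and UGT74B1 (-0.21 and -0.47), although UGT74B1 passed it under 6 of 14 alternatives, with an adjusted p in limma from 0.0101 to 0.565 over all of them. Of the 14 reference genes 2 were called higher at night and 0 by day, beside 15.8% and 11.4% of all features. Where a list above had 0 genes called in a direction by limma, an unadjusted p under 0.05 gave 0 by day for autophagy, chlorophyll synthesis, cell cycle, polymerase and Mediator, and reference genes, 0 at night for bZIP factors and 1 at night for photosystem genes. The same threshold gave 1 by day for each of the vacuolar protein sorting, response regulator and glucosinolate lists.

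Control hypocotyls of the series gave a night against day comparison on other arrays. The sample titles do not say whether both organs came from the same seedlings, and the fit did not pair their arrays. In hypocotyl 1980 features were higher at night (11.8%) and 1743 by day (10.4%). Features higher at night in both organs numbered 1180, which is 44.5% of the cotyledon set and 59.6% of the hypocotyl set, and those higher by day numbered 994, or 52% and 57%. Opposite calls were made for 29 features that were higher at night in cotyledon and 37 that were higher by day. Across 16746 features the differences of the organs correlated at r = 0.628, a description across genes that share the harvest times and array design. The difference between the organs was called for 1347 features. Night minus day was larger in cotyledon for 711 (4.25%) and smaller for 636 (3.8%). This split turned with the scaling, to 337 and 981 under centring on the reference genes.

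In hypocotyl SAG29 read 2.76, 3.03 and 2.45 at night and 8.18, 8.73 and 8.12 by day, a difference of -5.6 against -1.87 in cotyledon (difference between organs 3.73 ± 0.54, adjusted p = 6.33e-06). BGLU47 read 3.24, 4.30 and 3.1 at night and 8.65, 8.46 and 7.75 by day there, against -0.81 ± 0.31 in cotyledon, where the call was lost when any of 4 of the 6 arrays was left out (adjusted p up to 0.192). The organs differed by 3.93 ± 0.43 for this gene. AT2G14247 moved in opposite directions, with cotyledon arrays at 4.87, 5.06 and 6.90 at night and 2.88, 3.62 and 2.58 by day, and hypocotyl arrays at 2.88, 4.18 and 3.80 at night and 5.93, 6.6 and 4.74 by day (4.71 ± 0.78, adjusted p = 5.54e-05).

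EXLA1 averaged 7.38 in the day arrays of cotyledon, while hypocotyl arrays read 5.45, 5.18 and 5.84 at night and 3.93, 5.04 and 4.77 by day (difference between organs -4.49 ± 0.47, adjusted p = 1.15e-08). AT1G66100 read 8.03, 7.77 and 8.35 by day in cotyledon and 1.90, 2.2 and 2.23 in hypocotyl, and the organs differed by -4.81 ± 0.70 (adjusted p = 6.6e-06). The other large differences were less even. BGLU21 and AT1G52050 differed by -4.98 ± 1.49 and -4.58 ± 1.39, but their hypocotyl night arrays read 9.09, 3.98 and 7.56, and 7.71, 1.63 and 6.89. Without hypocotyl night replicate 1 the adjusted p was 0.128 and 0.149. AT5G13900 (3.57 ± 0.99) had hypocotyl day arrays of 5.41, 8.12 and 6.33 and lost its call without hypocotyl day replicate 2 (0.0861) or hypocotyl night replicate 1 (0.051).

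Further genes were chosen after their values were seen, because they belong to the groups above. XTH33 and EXLA2, higher by day in cotyledon, differed by -0.35 and -0.51 in hypocotyl and did not pass the test there (differences between organs -3.0 ± 0.29 and -2.36 ± 0.50). EXO differed by 0.62 in hypocotyl (-2.66 ± 0.54). EXPA16, higher at night in cotyledon, differed by 0.19 in hypocotyl (2.43 ± 0.35). PORB was higher at night in both organs, but by 5.00 in hypocotyl, where it averaged 9.61 and 4.61, against 2.63 in cotyledon (-2.37 ± 0.40, adjusted p = 8.7e-05). BZIP61 was higher by day in cotyledon and higher at night in hypocotyl by 1.74 (-2.49 ± 0.30). TCP15 and IAA18 differed by 0.12 and 0.13 in hypocotyl (-1.45 ± 0.26 and -1.23 ± 0.22). CCL and AT1G56220 were higher at night in both organs, with organ differences of 1.77 ± 0.42 and 2.23 ± 0.28. GI averaged 3.23 at night and 8.98 by day in hypocotyl, and its organ difference of 0.82 ± 0.21 (adjusted p = 0.00996) was lost under centring on the reference genes (0.0817). Of the 17 RNA polymerase II and Mediator subunits limma called 0 in hypocotyl, beside 11.8% higher at night and 10.4% higher by day over all features. Their median there was -0.041, and 3 had an unadjusted p under 0.05. For the organ difference limma called 0 of them, and 2 had an unadjusted p under 0.05. Over all features 4.25% had a larger and 3.8% a smaller night minus day in cotyledon, so that count was near the background.

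**Figure D4:**
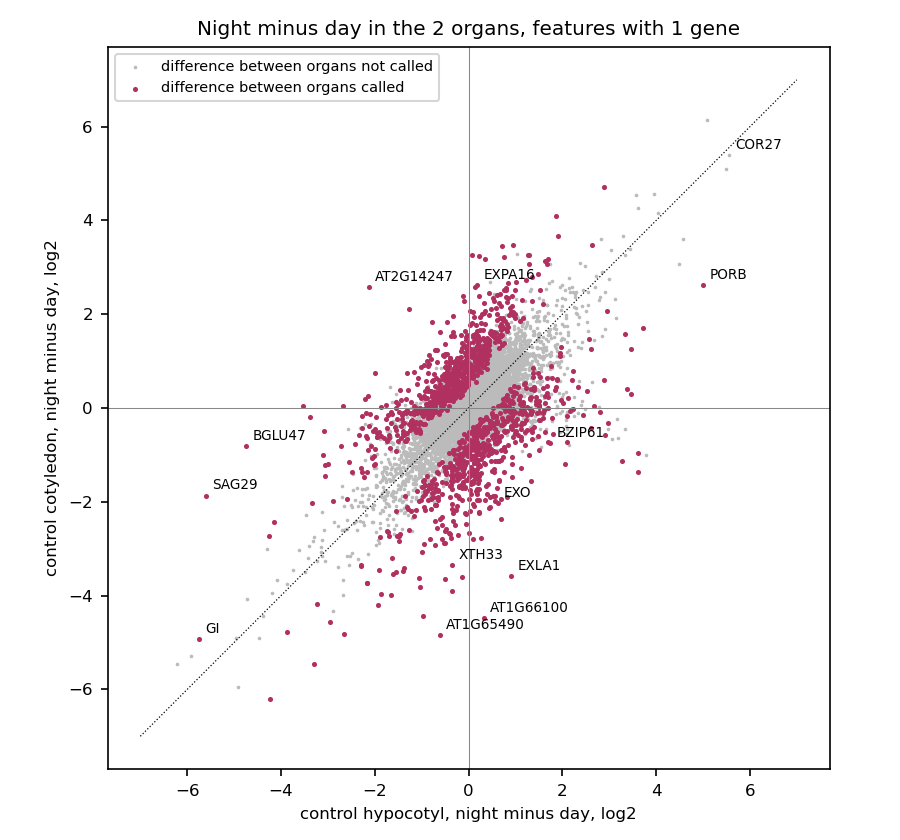
Night minus day difference on the log2 scale in control cotyledon (vertical axis) against that in control hypocotyl (horizontal axis) for 16746 features with 1 gene; red points are the 1347 features whose difference between organs was called, and the dotted line marks equal differences. COR27 and GI lie near the dotted line, EXLA1, XTH33 and AT1G65490 lie far below it, and SAG29 and BGLU47 lie above it with larger day levels in hypocotyl.

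Shaded cotyledons were compared between the same harvests on other arrays. Under shade 2186 features were higher at night (13.1%) and 1728 by day (10.3%). Shared with control were 1536 features higher at night, or 58% of the control set and 70.3% of the shade set, and 1180 higher by day, or 61.7% and 68.3%, and opposite calls numbered 16 and 10. The differences correlated at r = 0.788 across 16746 features of the same tissue and array design. The night against day difference itself differed between control and shade for 355 features, larger in control for 190 (1.13%) and smaller for 165 (0.985%). Under centring on the reference genes the split was 113 and 230, and without control day replicate 1 the count was 227.

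The largest of these shade differences lay in the day arrays. BGLU28 read 6.29, 6.84 and 5.71 by day in control and 2.93, 2.90 and 2.29 in shade, while its night arrays read 2.96, 3.55 and 3.56, and 3.64, 4.45 and 4.29 (-4.34 ± 0.58, adjusted p = 8.71e-06). AT3G24460 read 8.70, 8.0 and 8.40 by day in control and 5.67, 4.36 and 5.28 in shade (-3.92 ± 0.53). AT5G48570, the FKBP65 gene, was higher by day in both, but reached 6.97, 6.30 and 6.83 in shade against 10.04, 9.74 and 9.90 in control (-3.35 ± 0.39, adjusted p = 1.2e-06). TBL26, of the family that acetylates wall polysaccharides, read 8.81, 8.62 and 8.24 by day in control and 5.41, 5.73 and 5.14 in shade (-3.13 ± 0.30, adjusted p = 1.2e-08). In each case shade and control night arrays were closer to each other than the day arrays were. Hop3, chosen after its values were seen, differed by -1.03 under shade (-1.90 ± 0.40 between conditions, adjusted p = 0.00538).

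In the opposite direction, 4 genes were called higher at night in control and were not called so in shade. Under shade AT1G02610 and AT3G45730 were called higher by day, at -1.57 and -1.67 (adjusted p = 0.000601 and 4.56e-05 in limma). AT4G36850 and AT1G47395 differed by -0.32 and 0.62 in shade and did not pass the test there. AT1G02610 read 4.18, 3.80 and 4.83 by day in control and 6.80, 6.67 and 6.73 in shade (3.22 ± 0.49, adjusted p = 7.7e-05). AT3G45730, AT4G36850 and AT1G47395 differed between conditions by 2.89 ± 0.44, 2.79 ± 0.41 and 2.55 ± 0.56. Night arrays of AT1G47395 also stood apart, at 6.89, 6.76 and 7.68 in control and 5.28, 5.27 and 6.58 in shade. The same held for AT1G02610 and AT3G45730, with night means of 5.92 and 5.64 in control and 5.17 and 4.51 in shade. For AT4G36850 the night arrays of control and shade overlapped. Of the 10 autophagy genes 2 had a called shade difference, larger in control, and of the 8 carbon shortage genes 1 had one, beside 1.13% of all features. These 3 and SDP1, of the seed reserve list, were chosen after their values were seen. AKINBETA1 averaged 9.01 at night and 6.91 by day in control and 9.03 and 8.72 in shade (1.79 ± 0.28, adjusted p = 0.00012). ATG8E averaged 7.46 and 5.89 in control and 7.46 and 7.56 in shade (1.67 ± 0.24, adjusted p = 1.92e-05), ATG8F differed by 1.08 ± 0.18 and SDP1 by 1.17 ± 0.18. Their night levels in shade were near those of control, and their day levels in shade were above those of control. COR27 and GI were not among the called shade differences.

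Ethylene-treated cotyledons were also compared on arrays of their own. There 2203 features were higher at night (13.2%) and 1718 by day (10.3%). Of these, 1701 were shared with control at night, which is 64.2% of the control set and 77.2% of the ethylene set, and 1226 by day, 64.2% and 71.4%, with 5 and 2 opposite calls. The differences correlated at r = 0.83 over the same 16746 features. Control and ethylene differed in 117 features, with night minus day larger in control for 53 (0.316%) and smaller for 64 (0.382%). Under centring on the reference genes these were 33 and 65.

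AT1G65490 read 6.76, 7.02 and 6.67 by day in control and 3.73, 2.71 and 3.12 with ethylene, while night arrays lay between 1.75 and 2.12 in both conditions (-3.58 ± 0.37, adjusted p = 3.69e-08). AT3G48790 read 7.60, 7.65 and 7.56 by day in control and 4.75, 5.03 and 4.53 with ethylene (-3.05 ± 0.43). AT2G18193 was not called between night and day in control (0.22 ± 0.19), but read 5.07, 4.50 and 4.54 at night and 1.64, 1.69 and 1.87 by day with ethylene (-2.75 ± 0.26, adjusted p = 9.07e-09). In the other direction AT4G16146, among the largest night genes of control, had day arrays of 2.27, 2.91 and 2.50 in control and 5.79, 5.30 and 5.73 with ethylene (2.41 ± 0.29, adjusted p = 1.67e-06). AT3G55240 read 5.72, 5.56 and 4.79 by day in control and 8.36, 8.38 and 8.29 with ethylene (2.31 ± 0.47). AT2G26750 read 4.10, 4.54 and 3.91 by day with ethylene, while the ethylene night arrays and the control arrays of both harvests lay between 1.58 and 2.09 (2.08 ± 0.33). AT1G66100 (-2.78 ± 0.70, adjusted p = 0.0418) and AT3G51410 (2.16 ± 0.52, adjusted p = 0.0333) lost their call when single arrays were left out, with adjusted p up to 0.19 without ethylene day replicate 3 for the first, and up to 0.102 without control day replicate 1 or ethylene night replicate 3 for the second.

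Cell wall genes were among those chosen after their values were seen. EXLA1 averaged 5.39 by day with ethylene against 7.38 in control (-2.14 ± 0.47, adjusted p = 0.0129), and XTH33 averaged 4.93 and 7.01 at night and by day with ethylene (-1.28 ± 0.29). Both calls were lost when some single arrays were left out, with adjusted p up to 0.0753 for EXLA1 without ethylene night replicate 3 and 0.104 for XTH33 without ethylene day replicate 3. TMT1 was higher at night in both conditions, by 2.53 in control and 1.38 with ethylene (1.15 ± 0.23, adjusted p = 0.00552).

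**Figure D5:**
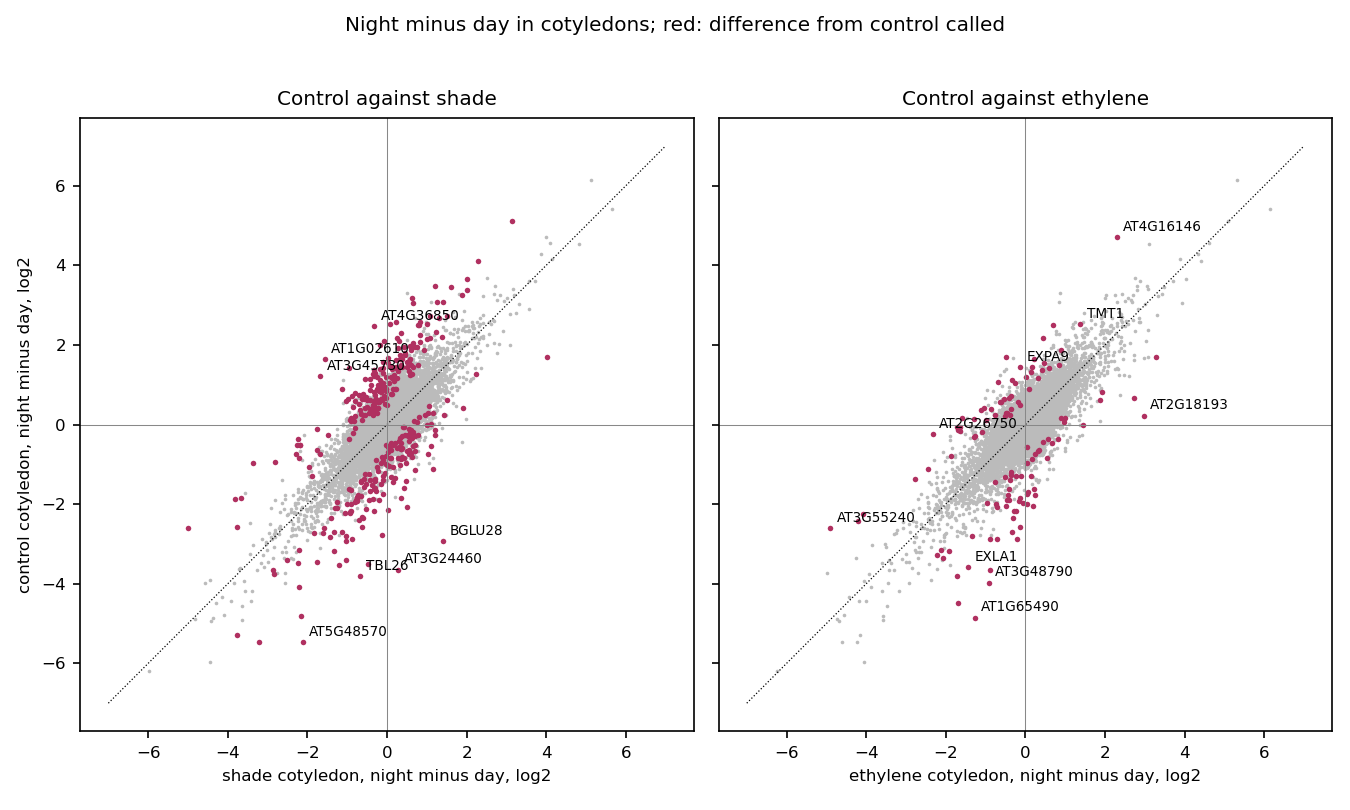
Night minus day difference on the log2 scale in control cotyledon (vertical axes) against that in shade cotyledon (left) and ethylene cotyledon (right), each point a feature with 1 gene; red points are the 355 and 117 features whose difference from control was called, and the dotted lines mark equal differences. Most features lie along the dotted lines, BGLU28 and AT3G24460 lie below it for shade, and AT2G18193 and AT1G65490 lie below it for ethylene.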

How the data were processed

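The deposited values are log2 levels. The submitters' processing notes name RMA, Affymetrix Expression Console 1.4 and, without its role, Transcriptome Analysis Console 3.0. RMA corrects background, equalizes the distributions of the arrays and summarizes the probes of a feature, so a shift shared by most genes between night and day would not show. The genome build and the array annotation were not given in the sources used here, so no coordinates are printed. Of 38408 features, 16746 had exactly 1 gene, 758 had several genes and 20904 had no gene in the platform table. Symbols of 16601 of the first were updated through gene identifiers to TAIR10.1.

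All 54 arrays entered a limma fit (limma 3.58.1 in R 4.3.3, lmFit and eBayes), which had 18 group means and 4.67 prior degrees of freedom. P-values were adjusted by Benjamini-Hochberg over the 17504 features with a gene. An adjusted p below 0.05 made a call. The difference of 2 comparisons was tested as a contrast of 4 groups. On data simulated for control cotyledon night against day with 17504 features, the fit recovered 11.9%, 77.6% and 98.5% of the 67, 67 and 66 features given log2 changes of 0.5, 1 and 2, and made 4 false calls. Far fewer features changed there than were called in the deposited data, which makes the adjusted threshold stricter in the simulation.

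Named genes were the 12 largest called differences in each direction with groups that do not overlap, all clock genes, up to 4 called members per direction of each list (up to 2 uncalled where fewer were called), and the 4 largest called differences of each sign between organs or treatments. The comparison and the lists were chosen with earlier results of these data known, and 7 lists were added after values were seen. A gene with several features was represented in a list by the brightest. Symbols that stand for another gene here were taken out of the lists. Whether probes of close family members share signal was not tested. The alternatives were a replicate block, other scalings, a filter on dim features, other fits and leaving out each array. Promoter sequences were not used here.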

Additional observations from a re-analysis of the deposited data

Results flagged for a closer look

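Results are given here because the night against day difference of control cotyledon differed, by a test of the difference itself, from that of control hypocotyl, shaded cotyledon or ethylene-treated cotyledon. Values are differences of differences on the log2 scale, control cotyledon minus the other group. No test for a deviating array was run within a group, since each group has 3 arrays.

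Against hypocotyl 1347 features were called. Values below 0 were -4.98 for BGLU21, -4.81 for AT1G66100, -4.58 for AT1G52050, -4.49 for EXLA1, -4.24 for AT1G65490, -3.44 for BGLU33, -3.0 for XTH33, -2.66 for EXO, -2.49 for BZIP61, -2.37 for PORB, -2.36 for EXLA2, -2.0 for SWEET11, -1.90 for BZIP34, -1.45 for TCP15, -1.23 for IAA18 and -0.80 for LHCB4.2. Values above 0 were 4.71 for AT2G14247, 3.93 for BGLU47, 3.73 for SAG29, 3.57 for AT5G13900, 2.43 for EXPA16, 2.23 for AT1G56220, 1.76 for CCL, 1.14 for CLE44 and 0.82 for GI. Leaving out some single arrays ended the call of 4 of these, with an adjusted p in limma of up to 0.149 for AT1G52050, 0.128 for BGLU21, 0.0861 for AT5G13900 and 0.058 for CLE44.

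Against shade 355 features were called. Values below 0 were -4.34 for BGLU28, -3.92 for AT3G24460, -3.35 for AT5G48570, -3.13 for TBL26, -2.65 for AT4G34550, -2.24 for AT2G27420, -2.21 for UGT84A3, -1.90 for Hop3 and -1.26 for MYC4. Values above 0 were 3.22 for AT1G02610, 2.89 for AT3G45730, 2.79 for AT4G36850, 2.55 for AT1G47395, 1.95 for AT3G15630, 1.82 for AT1G56220, 1.79 for AKINBETA1, 1.67 for ATG8E, 1.17 for SDP1 and 1.08 for ATG8F. The call of MYC4 was lost without control day replicate 1 (adjusted p = 0.0747 in limma) or shade day replicate 1 (0.0682), and that of AT3G15630 without control day replicate 2 (0.0673).

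Against ethylene 117 features were called. Values below 0 were -3.58 for AT1G65490, -3.05 for AT3G48790, -2.78 for AT1G66100, -2.75 for AT2G18193, -2.23 for EXO, -2.16 for EXLA2, -2.14 for EXLA1, -1.72 for UGT84A3, -1.28 for XTH33 and -1.05 for AFR. Values above 0 were 2.41 for AT4G16146, 2.31 for AT3G55240, 2.16 for AT3G51410, 2.08 for AT2G26750, 1.57 for EXPA9 and 1.15 for TMT1. Leaving out some single arrays ended the call of 8 of these, with an adjusted p in limma of up to 0.19 for AT1G66100, 0.143 for AFR, 0.127 for EXPA9, 0.108 for EXO, 0.104 for XTH33, 0.102 for AT3G51410, 0.0956 for EXLA2 and 0.0753 for EXLA1.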

How the results depend on the processing

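The count of control cotyledon calls, 4560, ranged from 3918 to 4255 when 1 of the 6 arrays was left out and from 3857 to 4754 under the other settings. Fitting only the arrays compared, which leaves fewer arrays to estimate the spread, gave 2255 calls in hypocotyl, 684 for the organ difference, 108 for shade and 50 for ethylene. Over the 14 alternatives the highest adjusted p in limma for control cotyledon was 2.98e-06 for COR27 and 2.34e-06 for GI. Leaving out 1 array gave 227 to 348 calls for the shade difference, lowest without control day replicate 1, and 75 to 103 for the ethylene difference, and the cause was not tested. The organ difference then ranged from 1049 to 1415 and the hypocotyl count from 3000 to 3825. With the replicate block the counts were 4754 in control cotyledon, 3940 in hypocotyl, 1571 for the organ difference, 448 for shade and 152 for ethylene. Deviations of night and day arrays with the same replicate number in control cotyledon correlated at 0.00732, 0.119 and 0.115, and night replicate 1 correlated best with day replicate 3. In hypocotyl the values were 0.0397, 0.174 and 0.18, and each night array correlated best with its own number, a hint from the data and not from the labels. Not every pair was above 0.1 and the labels do not tie a number to an experiment, so whether the numbers pair the samples is not settled.

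Of 2387 values of 171 named features under 14 alternatives, 2322 kept their side of the threshold, 50 lost the call, 15 gained it and 0 changed sign while called. The lost calls belonged to 14 features. For the organ, shade and ethylene differences 24 of 499, 6 of 380 and 70 of 319 values lost the call. Of the control cotyledon calls 53.7% were higher at night after a second quantile normalization and 41.2% after centring on the reference genes (1883 against 2685). Centring gave splits of 337 and 981 for organs, 113 and 230 for shade, and 33 and 65 for ethylene. The shares of promoters with a motif were not run, since no promoter sequences were used. The number of arrays, 3 a group, limits the precision.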
